A study of Mus musculus with 6 samples.

Results

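The set described here is 10 genes that control how far signals run through the NF-kappaB pathway, followed in wild-type mouse regulatory T cells (Treg): Tnfaip3, Tnip1, Tnfaip8, Map3k8, Map3k14, Traf1, Traf2, Traf3, Birc2 and Birc3. They were chosen by symbol from a table of 24421 genes, all 10 were present, and all 10 passed the filter on low values that left 10436 genes for testing. All Treg were wild-type, taken from spleen and lymph nodes. There were 2 libraries each of unstimulated Treg, of Treg activated in culture (stimulated) and of Treg activated together with iBP, which the series text describes as inhibiting H2AK119ub1, the histone H2A ubiquitin mark of Polycomb repressive complex 1. Kdm2b-deleted Treg, which the series also names, were not analysed here. No group used here received iBP alone, and neither the stimulus, its duration, the iBP dose nor the age of the mice is stated in the labels. Each library started from 100000 cells and 40 ng of total RNA, copied by SMART-seq from an oligo-dT primer. Expression is in FPKM, which corrects fragment counts for gene length and library total, a scale on which levels of different genes can be set side by side.

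NF-kappaB transcription factors are held inactive in the cytoplasm until ubiquitin chains, built around receptor-bound TRAF proteins and the cIAP ligases, recruit the kinases that release them. A20, the product of Tnfaip3, edits and binds those chains and so restrains the pathway, and its partner ABIN1, the product of Tnip1, helps it to reach them. In the alternative arm, TRAF2, TRAF3 and the cIAPs hold the kinase NIK, the product of Map3k14, at a low level by marking it for destruction. Tnfaip3, Tnip1, Traf1 and Birc3 are themselves classical NF-kappaB target genes, and in Treg the pathway works downstream of the T-cell receptor, CD28 and several TNF-family receptors.

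Because the pathway's output factors bind the kappaB consensus, that motif of 10 bases was sought by name, on both strands, in the 250 bases before each RefSeq start (build GRCm38.p6). The RefSeq table matched 8 of the 10 genes, with 10 windows between them, and Map3k8 and Tnfaip8 had no entry. A match was found in 3 windows, those of Tnfaip3, Tnip1 and Traf3, while 7.25% of the table's 32851 windows of that length held one. The windows of Traf1, Traf2, Birc2, Birc3 and Map3k14 and the second start of Tnfaip3 did not hold these letters. The 130 bases next to each start are printed here, with the matched bases in capitals, because these are the starts that hold the motif. They are chr10:19015411-19015540 (minus strand), chr11:54962941-54963070 (minus strand) and chr12:111166240-111166369 (plus strand).
Tnfaip3: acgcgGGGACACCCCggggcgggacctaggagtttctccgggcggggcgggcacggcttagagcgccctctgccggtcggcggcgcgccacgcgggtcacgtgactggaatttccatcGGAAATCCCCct
Tnip1: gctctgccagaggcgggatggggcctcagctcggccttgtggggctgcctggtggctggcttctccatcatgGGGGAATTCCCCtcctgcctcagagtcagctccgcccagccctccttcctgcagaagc
Traf3: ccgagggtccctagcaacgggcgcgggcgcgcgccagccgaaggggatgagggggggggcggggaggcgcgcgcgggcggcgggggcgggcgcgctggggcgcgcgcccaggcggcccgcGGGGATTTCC

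The Tnfaip3 stretch holds a match at 125 to 116 bases before the start, which reads as the motif on either strand, and another at 12 to 3 bases, on the opposite strand. It lies inside the Tnfaip3 gene of GENCODE, which begins further upstream, at base 19015657. Its place relative to exons was not examined. The Tnip1 stretch holds 4 overlapping matches merged into 12 bases, GGGGAATTCCCC, a palindrome at 58 to 47 bases before the start. In GENCODE the Tnip1 gene begins at base 54962917, downstream of this RefSeq start, so these distances depend on the annotation. The Traf3 match, GGGGATTTCC, ends at the base before the start. Binding was not measured in these libraries, so the matches describe the sequence alone.

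**Figure D1:**
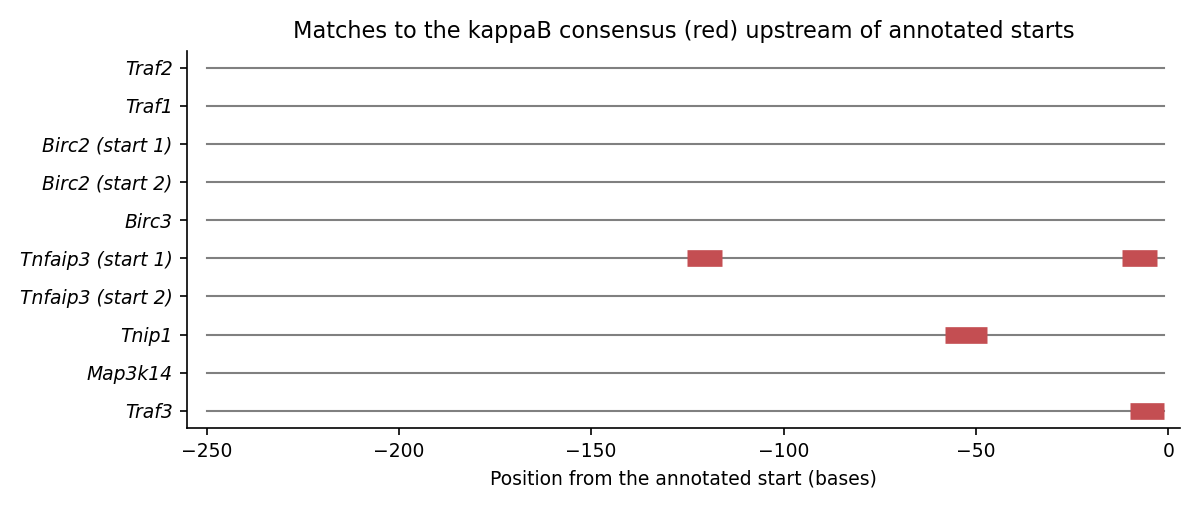
Each line is the 250 bases before an annotated RefSeq start of a member gene, drawn by distance from the start in bases, and red blocks are matches to the kappaB consensus on either strand. Tnfaip3 (its first start), Tnip1 and Traf3 hold matches, and the other 7 windows hold none.

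Treg and T-cell markers were present in every library. Foxp3 read 35.5 and 47.1 FPKM in unstimulated, 121 and 101 in stimulated and 122 and 124 in iBP libraries, and Cd4 read between 83.1 and 107. Of the 7 markers in this list, limma called 3 higher with stimulation: Foxp3, Il2ra and Tnfrsf18. It called 0 in iBP against stimulated and 3, all higher, in iBP against unstimulated: Foxp3, Il2ra and Ctla4. Of all tested genes, 1.29%, 0.00958% and 1.75% were called in these comparisons, in the same order. All 8 B-cell markers examined were also above 0 in every library. They summed to 844 and 878 FPKM in unstimulated, 902 and 871 in stimulated and 760 and 802 in iBP libraries, and limma called 0 of 8 in each comparison, with 1 at an unadjusted p under 0.05. Cd79a, a B-cell receptor component, read 234 to 291 FPKM. B cells also use this pathway, and their part in the members' levels was not tested. Summed myeloid markers lay between 73.3 and 105 FPKM, mostly from Lyz2 (lysozyme) at 65.5 to 99.5, with Cd68 at 3.53 to 8.28 and Itgam at 0 in 4 of 6 libraries, and CD8 and NK-cell markers between 13.8 and 21.2. Summed FPKM ranged from 366044 to 381302 per library, and the depth is unknown. On the first principal component, unstimulated replicate 1 stood apart at −37.9, against −9.32 to 13.3 for the other 5. That library also had the fewest genes above 0, at 12596 against 13293 to 13592.

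With stimulation, Tnfaip8 and Map3k8 rose to over 2-fold of their unstimulated level and Tnfaip3 fell by 36.8% in mean FPKM, while the TRAF and cIAP genes did not pass the test. These are 3 of 10 members called at an adjusted p under 0.05 (limma, Benjamini-Hochberg over all tested genes), where 1.29% of all tested genes were called, 0.968% as higher and 0.326% as lower. The 2 groups of libraries did not overlap for 7 of the 10 members, against 37.8% of all tested genes. Among the 7 is Birc3, whose nearest libraries were almost equal, at 185.3 FPKM unstimulated and 185.1 stimulated. The members' median difference was −0.18 (log2), with 3 of 10 above 0, and that of all tested genes was −0.0024, with 5186 of 10436 above 0. In bulk libraries, fewer cells of a type and less RNA per cell cannot be told apart, and this holds for every difference given here.

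Tnfaip3, which encodes the ubiquitin-editing enzyme A20 (chr10:19000910-19015657), was the most abundant member. It read 357 and 394 FPKM in unstimulated libraries, 246 and 228 in stimulated ones and 231 and 220 with iBP. Both unstimulated libraries lay above all 4 stimulated ones. The difference with stimulation was −0.66 ± 0.11 (log2, SE; adjusted p = 0.012), and its size exceeded that of 91.3% of tested genes. The call ended without unstimulated replicate 2 (adjusted p = 0.0516) or stimulated replicate 2 (0.0887).

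Tnip1, which encodes the A20-binding protein ABIN1 (chr11:54910785-54962917), read 83.5 and 76.8 FPKM in unstimulated libraries, 55.0 and 61.7 in stimulated ones and 52.3 and 51.4 with iBP. The groups did not overlap between unstimulated and either stimulated set. The stimulated libraries differed from unstimulated by −0.45 ± 0.13 (log2), a 27.2% lower mean that was not called (adjusted p = 0.174). The ratio of Tnfaip3 to Tnip1 FPKM within a library was 4.28 and 5.13 unstimulated, 4.47 and 3.70 stimulated and 4.42 and 4.29 with iBP, so the groups overlapped in this ratio.

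Map3k8 encodes the kinase TPL2, which is held by the NF-kappaB precursor p105 and, once released, activates the MEK and ERK kinases (chr18:4331327-4353015). It read 39.4 and 35.0 FPKM in unstimulated libraries, 67.9 and 86.4 in stimulated ones and 75.9 and 63.0 with iBP. All 4 stimulated libraries lay above both unstimulated ones, by a difference of 1.03 ± 0.16 (log2, stimulated minus unstimulated; adjusted p = 0.00845). Its call ended without stimulated replicate 2 (adjusted p = 0.111).

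Tnfaip8, a TNF-induced gene whose protein family carries lipids and affects cell death (chr18:49979427-50107173), had the largest difference of the 10 members. It read 15.2 and 13.2 FPKM in unstimulated libraries, 36.9 and 34.2 in stimulated ones and 27.8 and 31.7 with iBP. The unstimulated libraries were below all others, and the rise with stimulation was 1.26 ± 0.17 (log2; adjusted p = 0.00288), larger in size than 99.1% of tested genes. The call held without any 1 of the 6 libraries. On the other strand Tnfaip8 overlaps C030005K06Rik, which was not used here. No source used here gives the strand of the libraries, and without it reads of both genes cannot be told apart. The same holds for Tnip1 with Gm12230 and Traf2 with Gm13433, and Map3k14 overlaps 1700028N14Rik on its own strand. These genes were not used here either.

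For these 3 called members, the calls ended when the filter on low values was dropped, at adjusted p = 0.137 for Tnfaip3, 0.0987 for Tnfaip8 and 0.168 for Map3k8. They also ended without the variance trend of the model, at 0.284, 0.108 and 0.195, where the number of genes called in all fell from 135 to 12 under each of these settings.

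**Figure D2:**
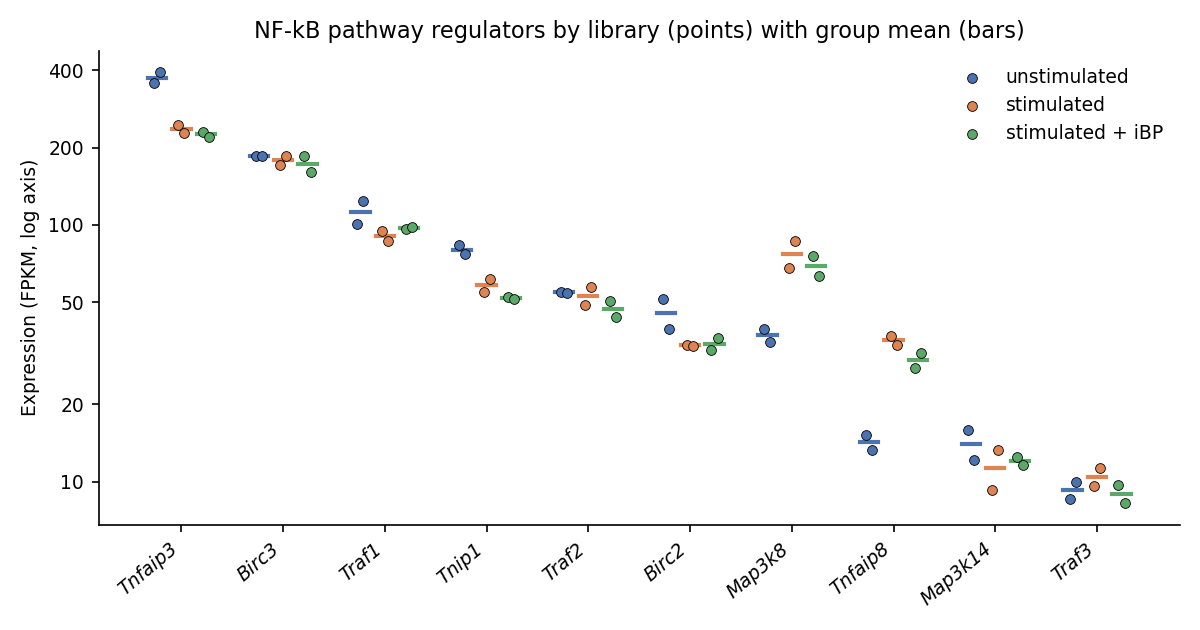
Each point is the FPKM of a member in 1 library, on a log axis, and each bar is the mean of the 2 libraries of a group. Tnfaip3 falls from 357 and 394 unstimulated to between 220 and 246 in the 4 stimulated libraries, and Map3k8 and Tnfaip8 lie higher in those 4. Birc3, Traf2 and Traf3 are close together across groups, and the groups of Map3k14 overlap within a wider spread of 9.23 to 15.9.

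Among the adaptors, Traf1, which pairs with TRAF2 below 4-1BB and related receptors (chr2:34941750-34961772), read 101 and 124 FPKM in unstimulated libraries, 94.9 and 86.4 in stimulated ones and 96.4 and 97.8 with iBP. Its difference with stimulation was −0.30 ± 0.14 (log2; adjusted p = 0.457). Traf2, the adaptor that brings the cIAPs to the receptor (chr2:25517982-25546940), read 54.9 and 54.3 FPKM unstimulated, 48.9 and 57.1 stimulated, then 50.5 and 43.6 with iBP. The stimulated libraries spanned the unstimulated ones, with a difference of −0.05 ± 0.15 (log2; adjusted p = 0.955; 95% interval −0.37 to 0.28). Traf3, which docks NIK to the cIAP complex (chr12:111166370-111267153), was the least abundant member, at 8.57 and 9.92 FPKM unstimulated, 9.57 and 11.3 stimulated, then 9.69 and 8.23 with iBP. Its groups overlapped, and the interval of its difference with stimulation, −0.34 to 0.65, spans changes in either direction. A gene on the other strand that overlaps Traf3, 4930595D18Rik, read at most 0.427 FPKM.

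Birc2 and Birc3 encode the ligases cIAP1 and cIAP2 and lie 11634 bases apart on chromosome 9, at chr9:7818227-7837064 and chr9:7848699-7873186. Birc3 was the more abundant in every library, by 3.62 to 5.72 times. It read 186 and 185 FPKM unstimulated, 172 and 185 stimulated and 186 and 160 with iBP, so that both the highest and the lowest library had iBP. The difference with stimulation was −0.06 ± 0.12 (log2; adjusted p = 0.926; 95% interval −0.32 to 0.20). Birc2 read 51.4 and 39.3 FPKM unstimulated, 34.2 and 33.9 stimulated, then 32.5 and 36.3 with iBP. Both unstimulated libraries of Birc2 were above the other 4, but they were also the furthest apart, and the difference of −0.39 ± 0.17 did not pass (adjusted p = 0.42). As close relatives, the 2 genes may share reads, since no source used here states how multi-mapped reads were treated.

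Map3k14, which encodes NIK, the kinase that opens the alternative arm (chr11:103219762-103267472), read 15.9 and 12.1 FPKM unstimulated, 9.23 and 13.3 stimulated and 12.5 and 11.6 with iBP. The groups overlapped, and the difference with stimulation was −0.30 ± 0.23 (log2; adjusted p = 0.723), the least precise of the 10. Map3k14 and Map3k8 thus stood further apart in stimulated cells. Map3k8 was 2.49 and 2.88 times Map3k14 in unstimulated libraries, 7.36 and 6.51 times in stimulated ones and 6.07 and 5.45 times with iBP. The ratio of Tnfaip3 to Map3k8 went the other way (both pairs were chosen after their values were seen), from 9.07 and 11.3 to 3.62 and 2.64, and was 3.04 and 3.50 with iBP.

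Ranked by mean FPKM, unstimulated Treg had Tnfaip3 first (375), then Birc3 (186), Traf1 (112), Tnip1 (80.2), Traf2 (54.6), Birc2 (45.3), Map3k8 (37.2), Tnfaip8 (14.2), Map3k14 (14.0) and Traf3 (9.24). Neighbours whose libraries overlapped were Birc2 with Map3k8 and Tnfaip8 with Map3k14. In stimulated libraries the first 3 places were held by the same genes, and Map3k8 (77.2) had moved from the seventh place to the fourth. There Tnip1 overlapped with Traf2 and Map3k14 with Traf3. With iBP the order differed from that of stimulated libraries only in Birc2 (34.4) and Tnfaip8 (29.7), which exchanged places. Against all tested genes, mean levels ran from the 53.1st percentile for Traf3 to the 98.2nd for Tnfaip3. Together the 10 genes made up 0.239% and 0.252% of summed FPKM in unstimulated, 0.206% and 0.210% in stimulated and 0.212% and 0.198% in iBP libraries.

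The second comparison asks whether the regulators differ in stimulated cells given iBP. None of the differences passed: 0 of 10 members were called by limma and 0 had an unadjusted p under 0.05, where 0.00958% of all tested genes were called (1 of 10436) and 498 had an unadjusted p under 0.05. The members' differences ran from −0.25 for Tnfaip8 to 0.11 for Map3k14, with a median of −0.11, and the median of all tested genes was −0.03. Libraries of the 2 groups did not overlap for 3 members (34.6% of all tested genes): Tnip1 and Tnfaip8, lower with iBP, and Traf1, higher.

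The 95% intervals bound what these libraries can show. For Tnfaip3 the interval of the iBP difference was −0.31 to 0.17 (log2), for Birc3 −0.31 to 0.21, for Tnip1 −0.46 to 0.13, for Map3k8 −0.50 to 0.21 and for Tnfaip8 −0.62 to 0.12. The least bounded were Traf3, at −0.69 to 0.30, and Map3k14, at −0.40 to 0.62. A difference as large as that of Tnfaip8 with stimulation lies outside the interval of each of the 10.

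The third comparison sets iBP-treated stimulated cells against unstimulated ones, and shares its libraries with the other comparisons. Here 4 of 10 members were called, against 1.75% of all tested genes, and libraries did not overlap for 7 (42.0% of all tested genes). Tnfaip8 was higher by 1.01 ± 0.17 (log2; adjusted p = 0.0101) and Map3k8 by 0.88 ± 0.16 (0.018). Tnfaip3 was lower, at −0.73 ± 0.11 (0.00552), and Tnip1 at −0.62 ± 0.13 (0.0425). The Tnip1 call ended in 11 of 16 other settings, among them every scaling of the libraries (adjusted p = 0.056 to 0.0611). All 4 calls also ended without the low-value filter (adjusted p = 0.112 to 0.197) and without the variance trend (0.152 to 0.28). Without iBP replicate 1 or 2 all 4 ended (adjusted p = 0.0567 to 0.28), and Map3k8 also lost its call without unstimulated replicate 2 (0.07) and Tnip1 without either unstimulated library (0.182 and 0.0644).

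**Figure D3:**
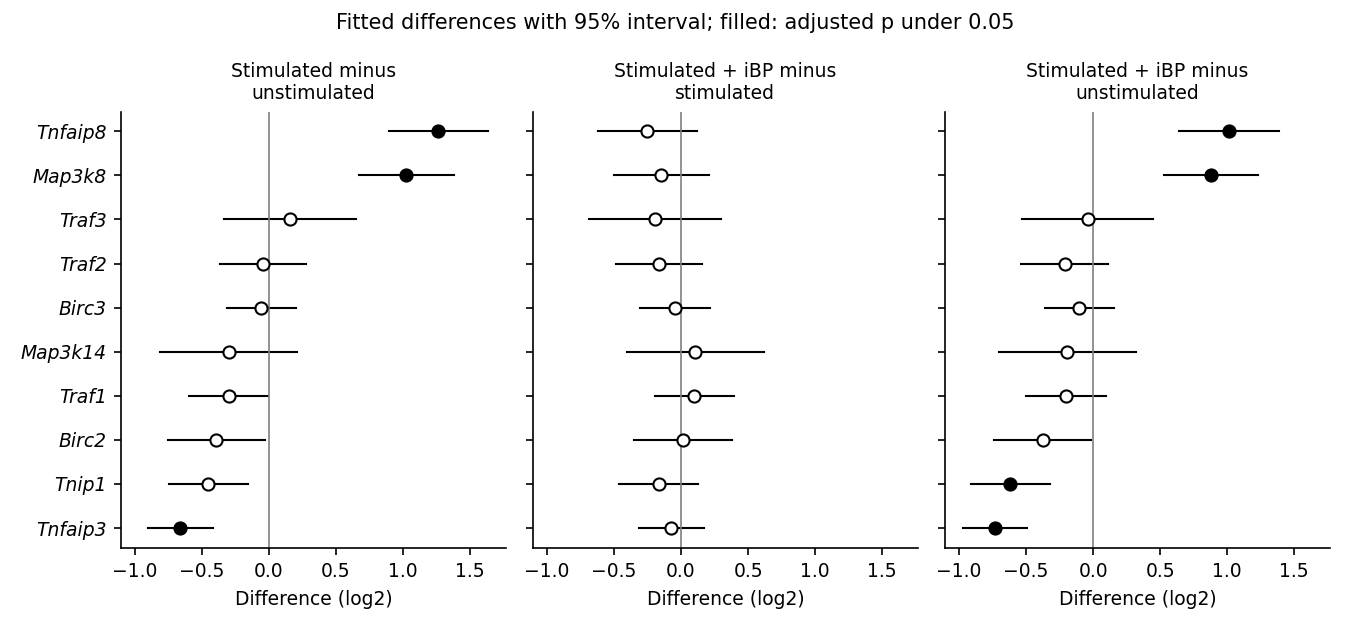
Points are fitted differences (log2) of the 10 members in each comparison, lines are 95% intervals, and filled points have an adjusted p under 0.05. Tnfaip8, Map3k8 and Tnfaip3 are filled in both comparisons with unstimulated cells and Tnip1 only with iBP, and no point is filled for iBP against stimulated, where all 10 intervals include 0.

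The other genes of the pathway were taken in 8 lists that hold none of the 10 members. Of them 4 rose and 1 fell with stimulation, all among subunits and inhibitors, TNF receptors and TNF-family ligands. Of 17 kinases and adaptors (the IKK complex, CARMA1-BCL10-MALT1, TAK1 and TBK1), 0 passed, with a median of 0.03 (log2). Their 2 largest differences were Tab1, a TAK1 partner, at 0.77 (adjusted p = 0.602; −0.062 without unstimulated replicate 1) and Chuk, the IKK alpha gene, at −0.37 (0.546). Of 9 other TRAF and TRAF-interacting genes, with a median of 0.01, 0 passed. Traf4 went from 23.2 and 23.0 FPKM to 37.0 and 39.3 (difference 0.70 ± 0.17, adjusted p = 0.0737), and it passed in 1 of 16 other settings. Traf6 went from 11.9 and 14.1 to 21.0 and 21.3 (0.67 ± 0.21, 0.199). Of 14 tested genes for A20 partners, deubiquitinases and ubiquitin ligases 0 passed, with a median of 0.11, and the largest differences were Xiap at 0.58 (0.533) and Otulin at 0.52 (0.511). In these 3 lists, limma gave an unadjusted p under 0.05 to 0, 2 and 0 genes.

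In the TIPE and IAP families 0 of 6 tested genes passed (median −0.03) and 1 had an unadjusted p under 0.05. It was Tnfaip8l1, a relative of Tnfaip8, which read 6.83 and 6.18 FPKM unstimulated and 3.32 and 1.95 stimulated (−1.07 ± 0.31, adjusted p = 0.161), a difference of the opposite sign to that of Tnfaip8. Xiap, of the same family as the cIAPs, is given above. The 5 kinases downstream of Map3k8 also gave 0 calls (median −0.22) and 0 genes with an unadjusted p under 0.05. All 5 of their differences were negative, from −0.32 for Mapk3 (adjusted p = 0.849; 0.24 without unstimulated replicate 1) and −0.30 for Map2k2 (0.646) to −0.10.

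Among NF-kappaB subunits and inhibitors, 1 of 11 rose and 0 fell (median 0.02). It was Nfkbiz, an atypical nuclear I-kappaB, which read 41.3 and 57.9 FPKM unstimulated and 117 and 110 stimulated (1.20 ± 0.16, adjusted p = 0.0025). Of 12 tested TNF receptors (median 0.13) 2 rose, Tnfrsf9, which encodes 4-1BB (0.92 ± 0.12, adjusted p = 0.00184), and Tnfrsf18, which encodes GITR (0.61 ± 0.10, 0.012), and 1 fell, Cd27 (−0.70 ± 0.13, 0.0264). Tnfrsf9 read 194 and 212 FPKM against 416 and 356. The Tnfrsf18 call ended without stimulated replicate 2 (0.0763) and when iBP libraries were kept out of the fit (0.0518). That of Cd27 needed unstimulated replicate 1 (0.132 without it) and both stimulated libraries (0.0818 without the first and 0.185 without the second). Of 9 tested TNF-family ligands (median 0.10) 1 rose, Lta (1.72 ± 0.15, adjusted p = 0.000125). When low genes were kept, or the variance trend dropped, the calls of Nfkbiz (0.138 and 0.15), Tnfrsf9 (0.132 and 0.18), Tnfrsf18 (0.173 and 0.31) and Cd27 (0.179 and 0.289) also ended, and that of Lta held. With iBP against stimulated, 0 genes of these 8 lists were called, and Otulin alone had an unadjusted p under 0.05 (−0.59 ± 0.26).

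**Figure D4:**
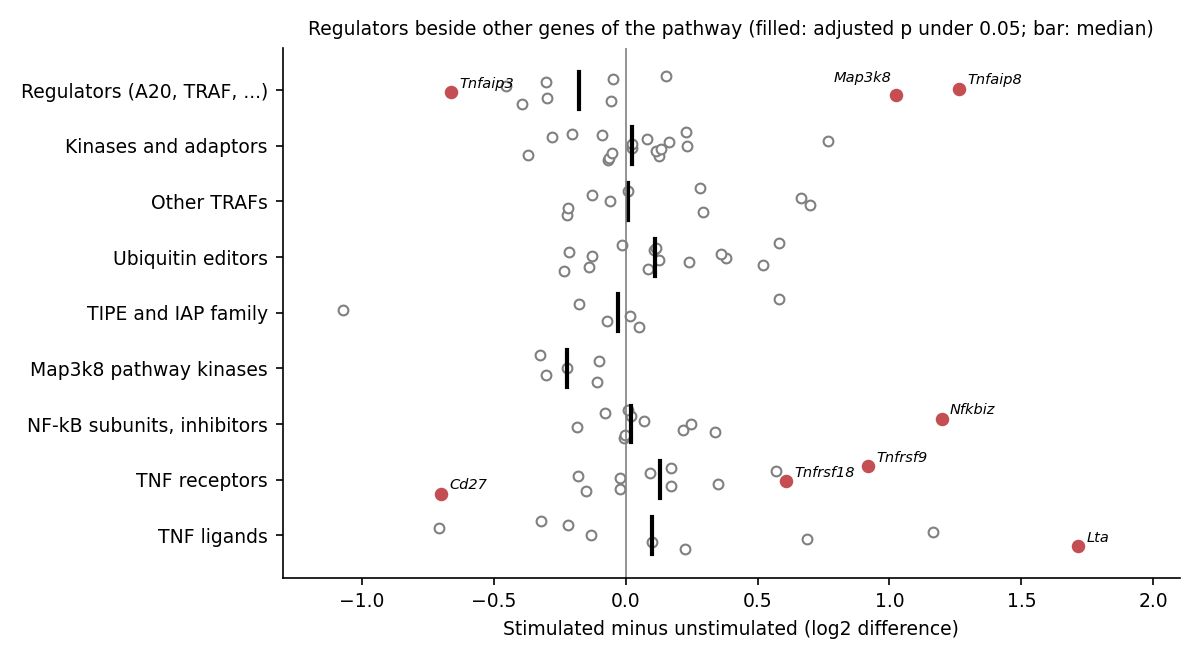
Each point is the stimulated minus unstimulated difference (log2) of 1 tested gene, in rows for the 10 regulators and 8 other lists of pathway genes, black bars are medians, and filled points have an adjusted p under 0.05. Filled points are Tnfaip8, Map3k8 and Tnfaip3 among the regulators and Nfkbiz, Tnfrsf9, Tnfrsf18, Cd27 and Lta in the other lists.

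Genes whose levels ran most like those of the 2 members with the largest differences were sought over the 6 libraries. For Tnfaip8 these were Nfx1 (Pearson r = 0.996), Lif (0.995) and Brat1 (0.995), and for Map3k8 D16Ertd472e (0.995), Swap70 (0.993) and Pja1 (0.993), of log2(FPKM + 1). Lif, a cytokine gene, read 1.27 and 1.07 FPKM unstimulated, 6.21 and 5.85 stimulated and 4.33 and 5.89 with iBP. With 6 libraries that share one step between unstimulated and stimulated cells, such values are common: 88 tested genes reached an r above 0.95 with Tnfaip8 and 84 with Map3k8.

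**Figure D5:**
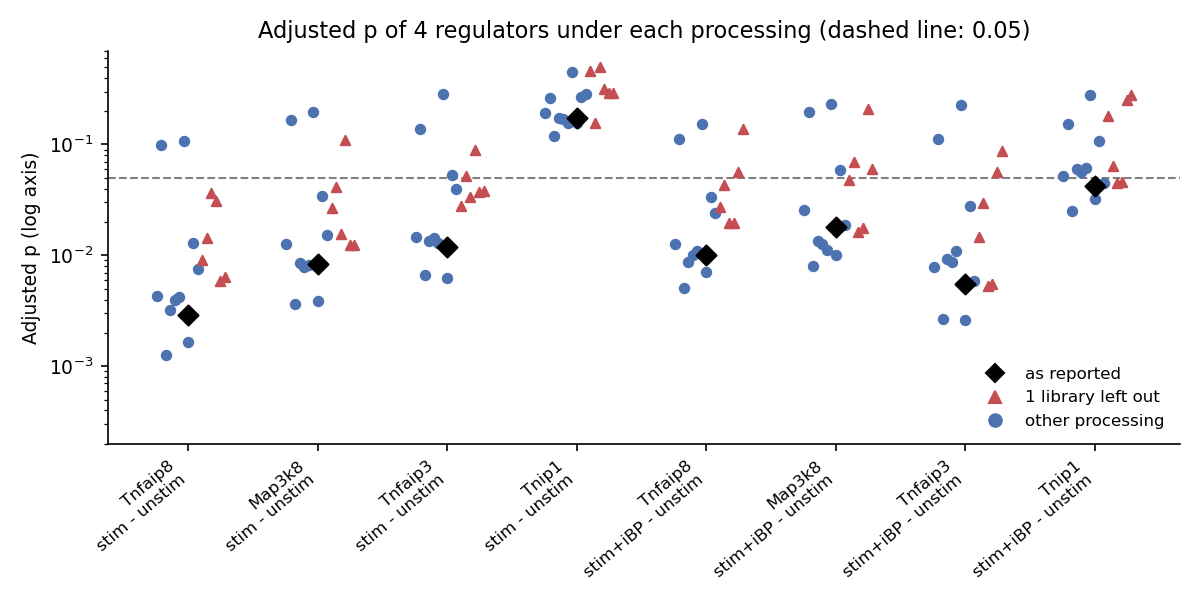
Adjusted p (log axis) of Tnfaip8, Map3k8, Tnfaip3 and Tnip1 in stimulated against unstimulated (first 4 columns) and stimulated with iBP against unstimulated (last 4 columns), as reported (diamonds), with 1 library left out (triangles) and with other processing (circles), with a dashed line at 0.05. For stimulated against unstimulated, all Tnfaip8 triangles lie below the line, Tnfaip3 and Map3k8 cross it, and Tnip1 lies above it throughout.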

How the data were processed

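SMART-seq of 6 libraries from wild-type Treg was used. The authors deposited FPKM values in a single table with a column per library. The submitters' processing notes name HISAT2 2.2.1, StringTie 2.1.1 and the mm10 build. Sources used here give no annotation, filter, strand or rule for multi-mapped reads. The read depth is unknown.

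Values were analysed as log2(FPKM + 1), so differences of low genes are understated. A gene was tested if 2 or more libraries reached 1 FPKM. With limma 3.58.1 (R 4.3.3), one linear model of the 3 groups and a variance trend was fitted to all 6 libraries, leaving 3 residual degrees of freedom to which moderation added 8.52. Two-sided p-values were adjusted by Benjamini-Hochberg over every tested gene and called under 0.05. The script was tested on simulated data. Errors of differences are standard errors. Whether the libraries of a group are separate mice is not in the labels, and p-values then reflect only how far these samples differ, which may be technical.

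The members, pathway lists and tests were chosen with earlier results of these data known. All members are named. From each pathway list, genes past the test in the first or second comparison are named, or else the 2 with the largest differences with stimulation, and the 3 genes most like each of the 2 members with the largest differences. Gene coordinates are from GENCODE M21 (GRCm38), and promoter sequences from RefSeq (GRCm38.p6). Protein sequences were not used here. Alternatives were a pseudocount of 0.1, no filter, a minimum of 5 FPKM, 3 scalings, no variance trend, robust moderation, a 2-group fit, a replicate term and leaving out each library, whose group then has 1 library assumed to vary like the others. Matplotlib 3.10.9 (Python 3.11.15) drew the figures.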

Additional observations from a re-analysis of the deposited data

How the results depend on the processing

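With stimulation, 135 genes were called. The count was 12 without the filter on low values, 12 without the variance trend, 79 with only the 2 groups in the fit and 54 to 141 with 1 library left out. For iBP against stimulated it was 1, with 0 without the filter, 0 without the trend and 0 to 5 with 1 library left out. For iBP against unstimulated it was 183, with 11 without the filter, 9 without the trend and 53 to 190 with 1 library left out. The cause was not tested. The members' differences kept their direction and side of the threshold in 149, 154 and 132 of 160 values (10 members in 16 settings) in the 3 comparisons, and a call was lost in 10, 0 and 25.

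Some differences changed sign, in members that were not called and a pair of other pathway genes. With 1 library left out, the difference with stimulation ran from −0.16 to 0.063 for Traf2, from −0.062 to 1.59 for Tab1 and from −0.88 to 0.24 for Mapk3. For iBP against stimulated it ran from −0.32 to 0.025 for Map3k8, from −0.13 to 0.35 for Map3k14, from −0.064 to 0.093 for Birc2 and from −0.15 to 0.060 for Birc3, which was also 0.00091 under quantile normalization. For iBP against unstimulated it ran from −0.15 to 0.064 for Traf3 and from −0.21 to 0.0041 for Birc3.

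The labels do not say whether the replicate numbers pair the libraries. Across genes, the difference of replicate 1 from 2 correlated at −0.05, −0.02 and −0.01 between groups. No shift common to libraries of the same number was seen. Variation of single libraries also enters these differences, so the values cannot decide whether the cells were paired. With a replicate block, 79, 1 and 109 genes were called in the 3 comparisons. The block ended the call of Tnfaip3 with stimulation (adjusted p = 0.0525), and of Map3k8 (0.0584) and Tnip1 (0.107) in iBP against unstimulated, and of the other named genes those of Tnfrsf18 (0.0618) and Cd27 (0.0803).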

Other observations

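In stimulated cells with iBP against unstimulated cells, the pathway lists gave calls in 3 of 8 cases. Nfkbiz was called among subunits and inhibitors (1.33 ± 0.16, log2; adjusted p = 0.00136), and Tnfrsf9 (0.72 ± 0.12, 0.00773) and Cd27 (−0.77 ± 0.13, 0.0122) among receptors. Among ligands, Lta (1.47 ± 0.15, 0.000482) and Tnf were called. Tnf, the gene of the cytokine that gave the family its name, read 20.9 and 27.6 FPKM unstimulated, 37.6 and 40.9 stimulated and 43.4 and 42.4 with iBP. Its difference from unstimulated was 0.69 ± 0.17 with stimulation alone (adjusted p = 0.0805) and 0.81 ± 0.17 with iBP (0.0333), while iBP against stimulated gave 0.13 (0.998). It is named here after its values were seen. The other 5 lists gave 0 calls by limma, with 0 to 3 genes a list at an unadjusted p under 0.05. Tnfrsf18 stood at 0.42 (0.0645) in this comparison.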
